A study of Mus musculus with 18 samples.

Results

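The genes described here encode the subunits of the voltage-gated sodium and calcium channels, measured by RNA sequencing in brain hemispheres of mice given glyphosate by mouth. Members were the rows of the count table whose RefSeq symbol was Scn followed by a number and a (the sodium alpha subunits) or by a number from 1 to 4 and b (the sodium beta subunits), or Cacna, Cacnb or Cacng followed by further digits or letters. The rule found 40 genes among 27179 rows, of which 25275 had a RefSeq symbol, and every RefSeq mouse symbol of that form was in the table. They comprised 14 sodium channel genes (10 alpha, 4 beta) and 26 calcium channel genes (7 high-voltage-activated alpha1, 3 T-type alpha1, 4 alpha2delta, 4 beta and 8 gamma). The rule used no measured value.

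The 18 mice were wild type C57BL/6J animals that received a daily oral gavage for 14 days from 4 months of age, and the vehicle was the pH-adjusted sodium hydroxide solution without glyphosate; the 125 and 250 mg/kg doses were dilutions of the 500 mg/kg solution in water. The vehicle group held 5 mice (2 males and 3 females), the 125 mg/kg group 5 (3 males and 2 females), the 250 mg/kg group 4 (3 males and 1 female) and the 500 mg/kg group 4 (2 males and 2 females). Each mouse gave 1 library from whole hemisphere tissue, and mice are named by the G number of their label. The comparisons address whether the level of these transcripts changed with dose.

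Voltage-gated sodium channels open rapidly upon depolarisation and carry the rising phase of the action potential; a large alpha subunit forms the pore and small beta subunits modify gating and cell adhesion. Voltage-gated calcium channels turn depolarisation into calcium entry, which drives transmitter release, dendritic signalling and burst firing. Their alpha1 subunits form the pore, alpha2delta and beta subunits bring high-voltage-activated channels to the membrane, and most brain gamma subunits are better known as auxiliary subunits of AMPA glutamate receptors.

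Several members resemble each other closely enough to bear on how reads were assigned. The reads were 100 bases long, and Scn1a, Scn2a, Scn3a and Scn9a, which lie on chromosome 2, were the 4 members that shared any exact 100-base window with another member. The windows shared made up 0.876% of those of Scn1a, 1.03% of Scn2a, 2.22% of Scn3a and 1.44% of Scn9a, so counts are uncertain between these genes for reads that fall there.

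The calcium channel genes were less alike. Among the high-voltage-activated alpha1 genes the longest identical coding run was 43 bases, in Cacna1c and Cacna1d. Stretches of the T-type alpha1 and beta genes are shown, from GENCODE M21 transcripts on GRCm38, 5′ to 3′ on the gene's own strand. The longest identical coding run among T-type alpha1 genes was 68 bases, shared by Cacna1g (chr11:94443187-94443254, minus strand, exon 11 of 38) and Cacna1i (chr15:80369688-80369755, plus strand, exon 12 of 37), and the same stretch of Cacna1h (chr17:25388574-25388641, minus strand, exon 12 of 35) differed at 4 bases, in capitals.
Cacna1g and Cacna1i: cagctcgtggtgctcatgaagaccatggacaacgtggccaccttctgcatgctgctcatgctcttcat
Cacna1h: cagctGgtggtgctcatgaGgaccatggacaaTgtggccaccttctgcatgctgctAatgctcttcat

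Among the calcium beta genes, 23 bases were identical in Cacnb3 (chr15:98642010-98642032, plus strand, exon 10 of 13) and Cacnb4 (chr2:52451927-52451949, minus strand, exon 11 of 14). The closest stretches of Cacnb1 (chr11:98009339-98009361, minus strand, exon 11 of 14) and Cacnb2 (chr2:14981377-14981399, plus strand, exon 11 of 14) differed at 1 and 5 bases. These sequences are shown as those of the 2 calcium beta genes of highest level. The longest identical runs were 24 bases among calcium beta genes (Cacnb1 and Cacnb2) and 26 among gamma genes (Cacng5 and Cacng7), so none reached the read length.
Cacnb3 and Cacnb4: gacaccatcaaccacccagcaca
Cacnb1: gacaccatcaaccacccagcCca
Cacnb2: gaTacAatTaaTcacccagcTca

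Library totals ranged from 3948096 to 11732885 counts over the 18 mice, and the 40 members together took 0.356% to 0.615% of them. No 2 libraries of a group were alike enough to be the same library, since the chi-square per degree of freedom between libraries of a group was 9.017 to 76.88 over 32 pairs. Mouse G4 (500 mg/kg, female) and mouse G9 (vehicle, female) stood apart, with a median correlation to the remaining libraries of 0.943 in G4 and 0.942 in G9, where the 16 other mice had 0.959 to 0.9747. The number of G4 falls among those of the vehicle mice (G1 to G18) and not of the other 500 mg/kg mice (G79 to G90). The labels also hold a tag number, 44 for G4, which it shared with 500 mg/kg female G79 and with no vehicle mouse. The label of G4 was used as given. Levels are counts-per-million values (CPM), here scaled by the TMM method. The 8 general neuron markers summed to between 4147 and 7408 CPM in the 18 mice, and no list of cell type markers had a gene at 0 in all mice. Of 17 marker lists of 8 genes, 3 midbrain dopamine neuron genes (Slc6a3, Ddc and Chrna6) and 1 hypothalamic gene (Irs4) rose with dose in the edgeR fit described below, and no gene of the other 15 lists was called.

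The levels of the members spanned the whole range from near absence to strong expression. Levels between genes are given as CPM per kilobase of exon (CPM/kb), mean ± SD over 18 mice. Of the 40 members, 31 were above 1 CPM/kb, 16 above 10 and 4 above 50.

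**Figure D1:**
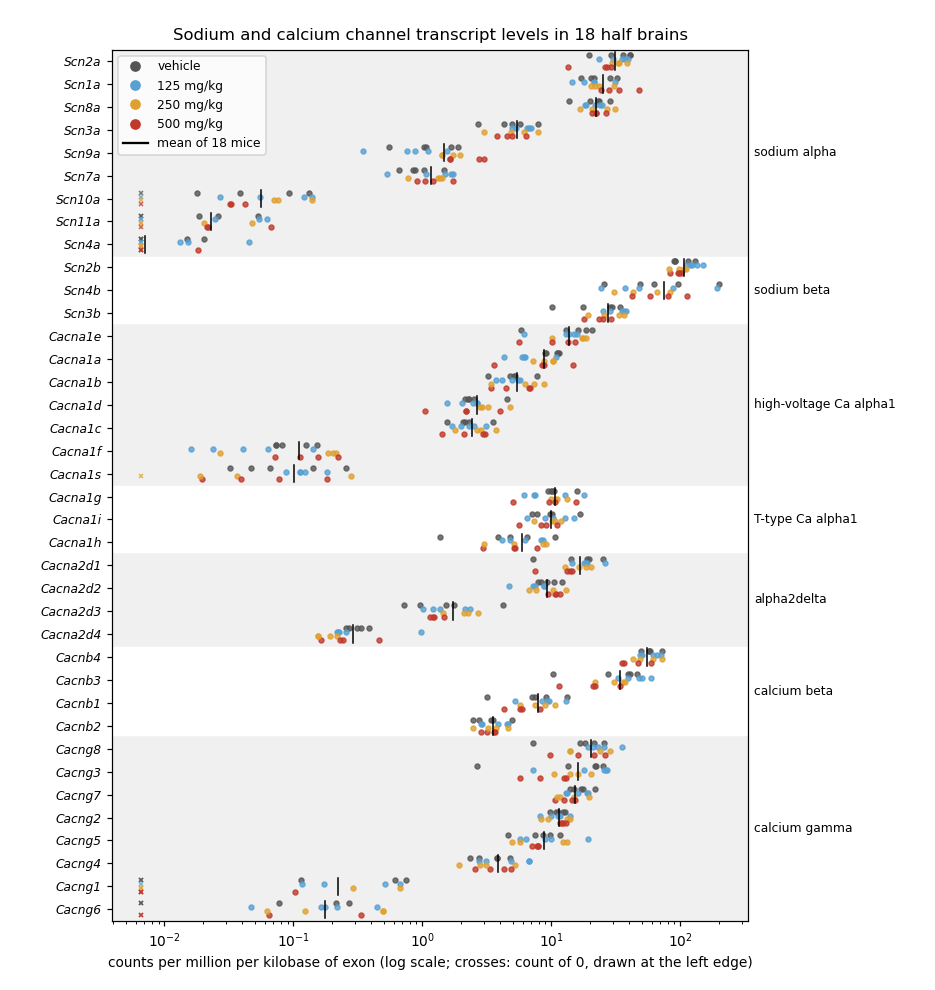
Level of 38 members in each of 18 mice, in CPM/kb on a log axis; each point is 1 mouse coloured by dose group, the bar is the mean of 18 mice, and crosses at the left edge are counts of 0. Scn2b, with a mean of 107 CPM/kb, lies furthest to the right, and the 500 mg/kg points overlap the vehicle points for every tested member shown.

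Among the pore-forming sodium alpha genes, Scn2a (31.2 ± 7.53 CPM/kb), Scn1a (25.3 ± 7.92) and Scn8a (22.4 ± 4.28) formed the upper level, and neighbours in that order did not differ by more than their SD. These encode the main sodium channels of central neurons, at axon initial segments, in interneurons and at nodes of Ranvier. Scn3a, best known from the embryonic brain, followed at 5.41 ± 1.48. Scn9a, known from pain-sensing neurons, was at 1.46 ± 0.683 and Scn7a, the sodium-sensing atypical channel, at 1.17 ± 0.368. Scn10a and Scn11a of sensory neurons and Scn4a of skeletal muscle had at most 12, 4 and 2 counts in any mouse and were not tested.

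Of the sodium beta genes, Scn2b and Scn4b were above every alpha gene and Scn3b was not. Scn2b was at 107 ± 18.7, Scn4b at 74.1 ± 50.6 and Scn3b at 27.4 ± 7.74 CPM/kb. Scn4b, which encodes a subunit linked to fast resurgent sodium current, had a coefficient of variation (CV) of 68.3% over all mice against 17.5% for Scn2b and 28.3% for Scn3b. Summed over subunits, sodium beta genes took a median of 27.8% of all member counts and sodium alpha genes 25.6%. These shares are of raw counts, not scaled to exon length, and the alpha genes have more exonic bases than the beta genes.

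Of the high-voltage-activated calcium alpha1 genes, Cacna1e (R-type) led at 13.6 ± 4.53 CPM/kb, followed by Cacna1a (P/Q-type, at presynaptic terminals and in Purkinje cells) at 8.72 ± 2.79 and Cacna1b (N-type, presynaptic) at 5.39 ± 1.6. The L-type genes Cacna1d and Cacna1c were at 2.67 ± 0.955 and 2.43 ± 0.672. The retinal L-type gene Cacna1f was at 0.11 ± 0.0674, and the skeletal muscle L-type gene Cacna1s had at most 15 counts in a mouse and was not tested. The low-threshold T-type genes, which support rebound bursts, were at 10.7 ± 3.36 (Cacna1g), 9.95 ± 2.87 (Cacna1i) and 5.89 ± 2.5 (Cacna1h).

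Among the accessory genes, the alpha2delta gene Cacna2d1, whose product binds gabapentin, was at 16.6 ± 5.04 CPM/kb and Cacna2d2, which encodes another gabapentin-binding subunit, at 9.17 ± 2.11, while Cacna2d3 and Cacna2d4 were at 1.71 ± 0.8287 and 0.292 ± 0.186. The cytoplasmic beta subunit genes followed the order Cacnb4 (55.2 ± 11.2), Cacnb3 (33.7 ± 13.2), Cacnb1 (7.9 ± 2.72) and Cacnb2 (3.51 ± 0.77). Of the exonic bases of Cacnb4, 16% overlap A430018G15Rik on the opposite strand, and the strand setting used in counting is not given in the sources used here. Of the gamma genes, Cacng8 (20.4 ± 6.91), Cacng3 (16.1 ± 7.6), Cacng7 (15.3 ± 3.13) and Cacng2 (11.4 ± 1.76, encoding stargazin) were above Cacng5 (8.83 ± 3.55) and Cacng4 (3.87 ± 1.41). Cacng1 and Cacng6, known from skeletal muscle, had at most 9 and 7 counts in a mouse and were not tested, and 8 skeletal muscle markers summed to 4.24 to 13.2 CPM.

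No tested member was called as changed with dose. The dose regression fitted a straight line on the log2 scale to all 18 mice with sex as a covariate, and its slope is the log2 change per 500 mg/kg. Of the 40 members, 34 passed the filter on low counts. The edgeR test at an adjusted p under 0.05 called 0 of 34 rising, against 0.246% of the 15863 genes tested, and 0 falling, against 0.0441%. DESeq2 called 0 of the 33 members to which it gave an adjusted p in either direction, against 1.37% of genes rising and 0.394% falling, and limma-voom called 0 of 34, against 0.29% and 0.0252%. At an unadjusted p under 0.05 in edgeR, 2 members had a positive slope (5.88%, against 7.91% of all genes) and 6 a negative slope (17.6%, against 5.28%), and these 8 did not pass the adjustment over all genes.

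**Figure D2:**
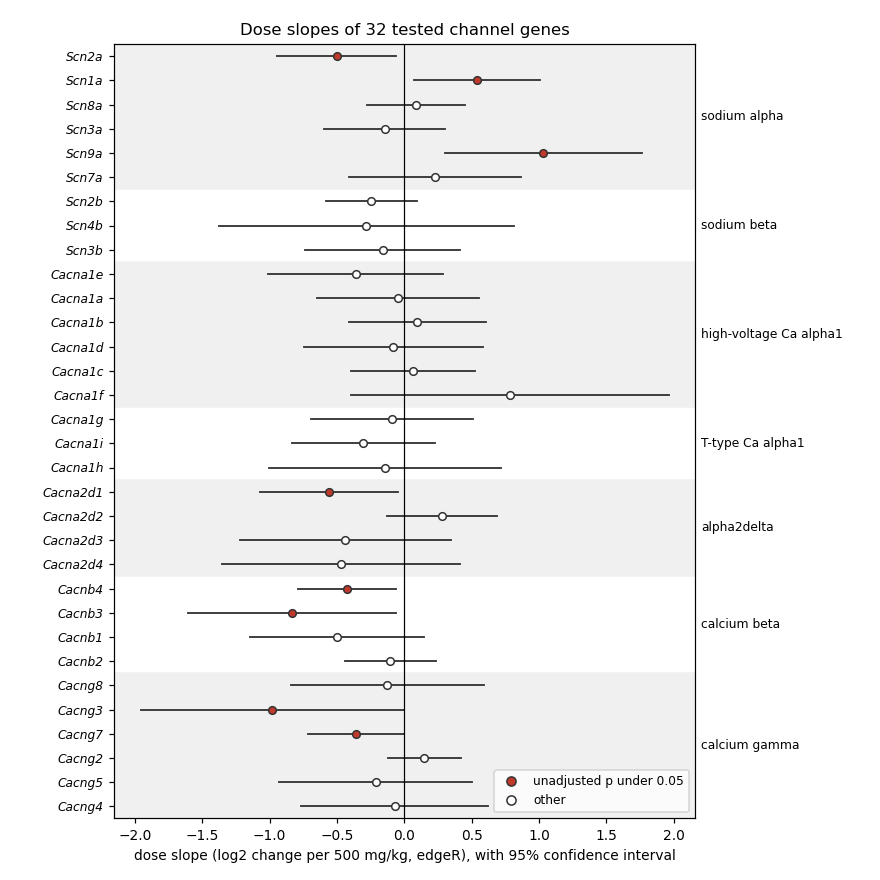
Dose slope of 32 tested members in log2 change per 500 mg/kg on the horizontal axis, with its 95% confidence interval as a line; filled points had an unadjusted p under 0.05. Most points lie left of 0, and the interval of Scn9a (0.30 to 1.76) lies furthest to the right among those that exclude 0.

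The members' slopes were negative more often than those of all genes, without any member being called. Of 34 slopes, 24 were negative (70.6%, against 48.8% of all 15863 genes), and their median was -0.14, against 0.0085 for all genes. All 4 calcium beta slopes were negative (median -0.46), as were all 4 sodium beta slopes (median -0.20), all 3 T-type slopes (median -0.14), 5 of 6 gamma slopes (median -0.17) and 3 of 4 alpha2delta slopes (median -0.45). The high-voltage-activated alpha1 slopes were divided 3 and 3 (median 0.01), and 5 of 7 sodium alpha slopes were positive (median 0.23). The 95% intervals bound what these data leave possible. The intervals of 21 of 34 members lay within a 2-fold change in either direction per 500 mg/kg and those of 33 within a 4-fold change. The narrowest was that of Cacng2 (-0.12 to 0.42) and the widest that of Cacna1f (-0.40 to 1.96), which had 1 to 16 counts per mouse. In these bulk samples, fewer cells of a type and less RNA per cell cannot be told apart.

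**Figure D3:**
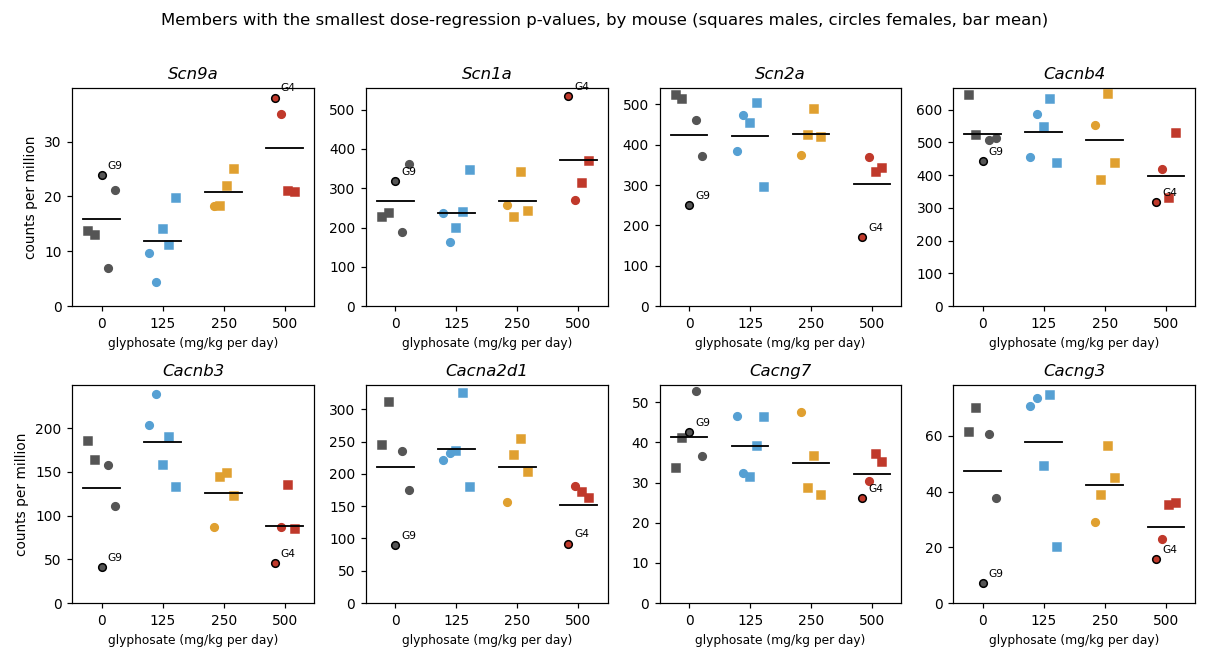
CPM of each of the 8 members with an unadjusted dose-regression p under 0.05, by dose in mg/kg per day; each point is 1 mouse (squares males, circles females), the bar is the group mean, and mice G4 and G9 are named. Each panel shows the 500 mg/kg points overlapping the vehicle points, with G4 the highest mouse for Scn9a and Scn1a and G9 the lowest for Cacnb3 and Cacng3.

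Scn9a had the smallest p of all members. Its gene (chromosome 2, 66480080 to 66635114) gave 13.7, 13, 23.9, 7.01 and 21.3 CPM in vehicle mice G1, G5, G9, G15 and G18 and 9.67, 4.46, 14.1, 11.1 and 19.7 in the 125 mg/kg mice G25, G29, G34, G40 and G45. It gave 18.3, 18.2, 21.9 and 25 CPM in the 250 mg/kg mice G49, G64, G66 and G71 and 38, 35, 21 and 20.9 in the 500 mg/kg mice G4, G79, G87 and G90. The 2 females at 500 mg/kg were the highest mice, while the 2 males lay below vehicle mouse G9. The slope was 1.03 ± 0.35 (SE; edgeR unadjusted p = 0.00791, adjusted p = 0.209), and it was 0.87 without G4 (adjusted p = 0.582) and 1.08 without G4 and G9 (adjusted p = 0.293).

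Scn1a, the channel of fast-spiking interneurons, gave 227, 237, 319, 189 and 363 CPM in the vehicle mice, in the same order, and 237, 162, 199.7, 239 and 346 at 125 mg/kg. It gave 258, 227, 341 and 241 at 250 mg/kg and 536, 271, 314 and 369 at 500 mg/kg. G4 was the highest of all mice, G90 was just above the highest vehicle mouse G18, and G79 and G87 lay within the vehicle range. The slope was 0.54 ± 0.22 (edgeR adjusted p = 0.310), and 0.27 without G4 (adjusted p = 0.753).

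Scn2a, the channel of excitatory neuron axons, gave 522, 514, 249.7, 461 and 371 CPM in the vehicle mice and 384, 473, 453, 503 and 296 at 125 mg/kg. It gave 373, 425, 488 and 420.1 at 250 mg/kg and 170.0, 369, 332 and 341 at 500 mg/kg. G4 was the lowest mouse and G9 the next, and the groups overlapped. The slope was -0.50 ± 0.21 (edgeR adjusted p = 0.319), -0.30 without G4 (adjusted p = 0.688) and -0.41 without G4 and G9 (adjusted p = 0.339). Scn1a, Scn2a and Scn9a each share exact 100-base windows with another member, as given earlier.

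The 4 calcium beta genes had negative slopes, and 2 of them had an unadjusted p under 0.05. Cacnb4 (chromosome 2, 52428320 to 52676609), whose protein is the main beta subunit of cerebellar neurons, gave 645, 521, 443, 507 and 512 CPM in the vehicle mice and 455, 587, 548, 634 and 438 at 125 mg/kg. It gave 554, 385, 648 and 437 at 250 mg/kg and 318, 419, 329.7 and 529 at 500 mg/kg. Of the 500 mg/kg mice, 3 lay below every vehicle mouse and G90 lay among them. The slope was -0.42 ± 0.17 (edgeR adjusted p = 0.304), and -0.33 without G4 (adjusted p = 0.660).

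Cacnb3 (chromosome 15, 98628436 to 98644536), a beta subunit of N- and L-type channels, gave 186, 163, 41.3, 157 and 111 CPM in the vehicle mice and 203, 239, 157, 190.4 and 132 at 125 mg/kg. It gave 87.3, 144, 149 and 122 at 250 mg/kg and 45.7, 87, 135 and 84.6 at 500 mg/kg. The highest mice were G29, G25 and G40 at 125 mg/kg and the lowest G9 and G4. All 500 mg/kg mice lay within the vehicle range, which G9 extended downward, and only G87 of them lay above vehicle mouse G18. The slope was -0.83 ± 0.37 (edgeR adjusted p = 0.344), -0.60 without G4 (adjusted p = 0.688) and -0.79 without G4 and G9 (adjusted p = 0.291). Cacnb1 and Cacnb2 had slopes of -0.50 ± 0.31 and -0.10 ± 0.16.

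Cacna2d1 (chromosome 5, 15934264 to 16374511) gave 245, 311, 89.7, 236 and 175 CPM in the vehicle mice and 222, 232, 236, 325 and 179.9 at 125 mg/kg. It gave 157, 229, 253 and 203 at 250 mg/kg and 92.1, 181, 172 and 163 at 500 mg/kg. The 500 mg/kg mice lay in the lower part of the vehicle range, which G9 extended downward. The slope was -0.56 ± 0.25 (edgeR adjusted p = 0.340), -0.40 without G4 (adjusted p = 0.688) and -0.56 without G4 and G9 (adjusted p = 0.280). The other alpha2delta genes had slopes of 0.28 ± 0.19 (Cacna2d2), -0.44 ± 0.38 (Cacna2d3) and -0.47 ± 0.42 (Cacna2d4).

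Among the gamma genes, Cacng3 (chromosome 7, 122671744 to 122769393), an AMPA receptor auxiliary subunit of forebrain neurons, had the steepest slope. It gave 61.5, 70, 7.31, 60.7 and 37.5 CPM in the vehicle mice and 70.8, 73.6, 49.3, 74.7 and 20 at 125 mg/kg. It gave 29.1, 38.8, 56.3 and 44.7 at 250 mg/kg and 15.9, 22.8, 35.1 and 35.8 at 500 mg/kg. All 4 mice at 500 mg/kg were below 4 of the 5 vehicle mice, and G9 was below them all. The slope was -0.98 ± 0.47 (edgeR adjusted p = 0.378), -0.79 without G4 (adjusted p = 0.688) and -0.997 without G4 and G9 (adjusted p = 0.300).

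Cacng7 (chromosome 7, 3332027 to 3368221), an auxiliary subunit best known from cerebellum, varied less. It gave 33.7, 41.2, 42.6, 52.9 and 36.5 CPM in the vehicle mice and 46.5, 32.4, 31.5, 39.2 and 46.4 at 125 mg/kg. It gave 47.6, 28.7, 36.5 and 26.9 at 250 mg/kg and 26.1, 30.5, 37.1 and 35.2 at 500 mg/kg. The slope was -0.36 ± 0.17 (edgeR adjusted p = 0.377), and -0.25 without G4 (adjusted p = 0.719). The remaining gamma genes had slopes of -0.12 ± 0.34 (Cacng8), 0.15 ± 0.13 (Cacng2), -0.21 ± 0.34 (Cacng5) and -0.07 ± 0.33 (Cacng4). The number of members with an unadjusted p under 0.05 depended on single mice, falling from 8 to 1 without G4 (Scn9a), to 2 without G15, to 4 without G1, G87 or G90 and to 5 without G79. Calls over all genes also varied with single mice. In edgeR at an adjusted p under 0.05 they went from 46 to 2 without G4, 7 without G15 and 4 without G87. Without G1, G90 and G79 they were 24, 33 and 127.

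Genes that led the remaining subfamilies by level or by p gave no call. Scn2b was at 481 ± 83.5, 595 ± 70.4, 462 ± 62.1 and 441 ± 35.8 CPM from vehicle to 500 mg/kg (SD over 5, 5, 4 and 4 mice), with a slope of -0.24 ± 0.16 (edgeR adjusted p = 0.543). Scn2b was thus highest at 125 mg/kg. Cacna1e was at 374 ± 146, 320.3 ± 96.5, 399.8 ± 97.5 and 281 ± 108 CPM, with a slope of -0.36 ± 0.31 (adjusted p = 0.660), and Cacna1f at 0.918 ± 0.329, 0.519 ± 0.459, 1.43 ± 0.793 and 1.27 ± 0.578 CPM, with a slope of 0.78 ± 0.56 (adjusted p = 0.579).

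The T-type and gamma genes chosen in that way gave no call either. Cacna1g was at 113 ± 27.1, 105 ± 50.2, 114 ± 13.5 and 103 ± 43.7 CPM, with a slope of -0.09 ± 0.29 (edgeR adjusted p = 0.925). Cacna1i was at 101 ± 37.6, 106 ± 32.7, 99.0 ± 18.9 and 84.1 ± 22.4 CPM, with a slope of -0.31 ± 0.25 (adjusted p = 0.643), and Cacng8 at 41.8 ± 16, 58.1 ± 15, 47.1 ± 17.4 and 42.9 ± 16.6 CPM (adjusted p = 0.912). Scn2b, Cacna1e, Cacna1f, Cacna1g, Cacna1i and Cacng8 thus each had their highest group mean at 125 or 250 mg/kg. For Cacna1g (114 CPM at 250 mg/kg against 113 in vehicle) and Cacna1i (106 at 125 mg/kg against 101) the difference was far smaller than the SDs. Among the other members named here, slopes ran from -0.28 (Scn4b) to 0.23 (Scn7a), with Scn3a, Scn3b, Scn8a, Cacna1a, Cacna1b, Cacna1c, Cacna1d and Cacna1h between them.

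No member was called when the groups were compared without a straight line. For any difference among the 4 groups, edgeR called 0 of 34 members (0.0441% of all genes), DESeq2 0 (3.4%) and limma-voom 0 (0.0378%). At an unadjusted edgeR p under 0.05 there were 3, Scn9a, Scn2b and Cacnb3, or 8.82% against 15% of all genes.

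At 125 mg/kg against vehicle, edgeR called 0 of 34 members (0% of all genes), DESeq2 0 (0.252%) and limma-voom 0 (0.0063%). An unadjusted edgeR p under 0.05 was reached by 2, or 5.88% against 11.2%, with Cacna1a at a log2 fold change of -0.59 ± 0.27 and Scn2b at 0.31 ± 0.13. At 250 mg/kg, edgeR called 0 (0%), DESeq2 0 (0%) and limma-voom 0 (0%), and 1 member, Cacna2d4 at -1.03 ± 0.44, had an unadjusted p under 0.05, or 2.94% against 3.76%.

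At 500 mg/kg, edgeR called 0 members (0.0189% of all genes), DESeq2 0 (1.08%) and limma-voom 0 (0.0189%). An unadjusted edgeR p under 0.05 was reached by 3, or 8.82% against 11.6%, with Scn9a at 0.86 ± 0.36, Scn2a at -0.50 ± 0.22 and Cacnb4 at -0.41 ± 0.18. The 500 mg/kg group was wholly above the vehicle group in 0 members, against 2.32% of all genes, and wholly below it in 0, against 0.933%.

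The slopes of males and females were not shown to differ. The test of the difference in slope called 0 of 34 members by edgeR (0% of all genes), DESeq2 (0%) and limma-voom (0%), and 0 had an unadjusted edgeR p under 0.05, against 1.65% of all genes. For Scn9a the male slope minus the female slope was -0.53 ± 0.73.

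Mice G4 and G9, which belong to different groups, were at the ends of the range for many members. Of the 34 tested members, 15 were lower in G4 than in each of the 16 mice other than G4 and G9 (44.1%, against 15.1% of all genes), and 14 were lower in G9 (41.2%, against 15%). Higher than all 16 were 2 members in G4 (5.88%, against 17.2%), Scn1a and Scn9a, and 0 in G9 (0%, against 12.8%). The 9 members low in both mice were Scn2a, Cacna1c, Cacna1e, Cacna1h, Cacna2d1, Cacnb1, Cacnb3, Cacng3 and Cacng8. Low in G4 but not in G9 were Cacna1a, Cacna1d, Cacna1g, Cacna1i, Cacnb4 and Cacng7, and low in G9 but not in G4 were Scn3a, Scn3b, Scn8a, Cacna1b and Cacna2d3.

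**Figure D4:**
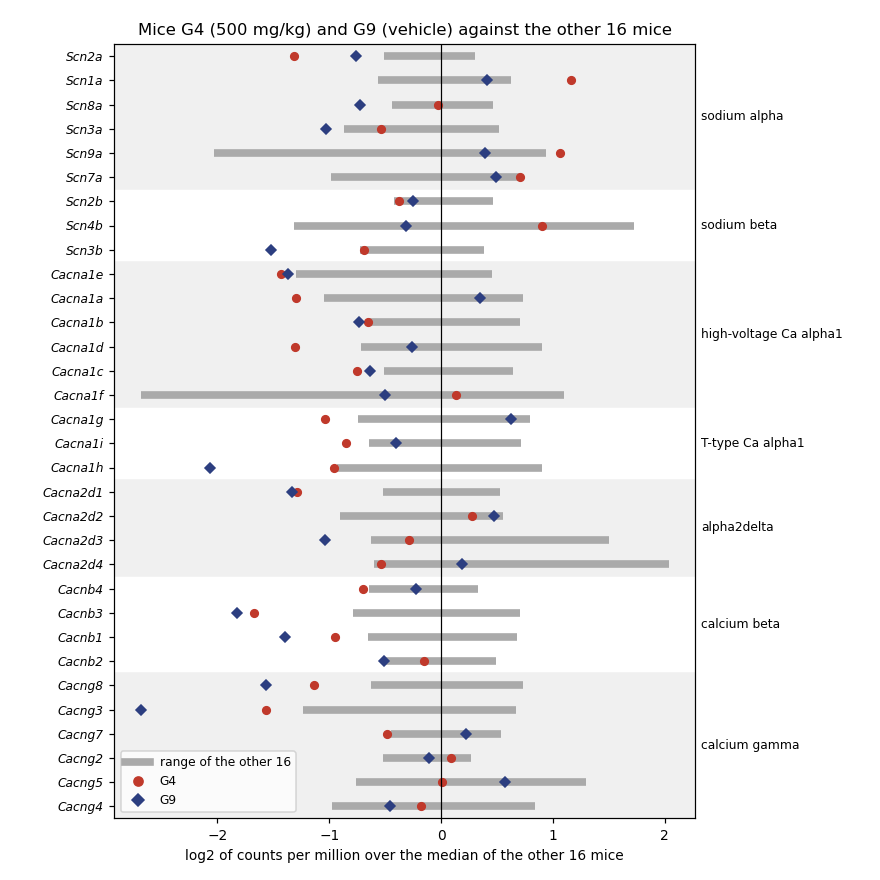
Level of 32 tested members in mouse G4 (500 mg/kg, circles) and mouse G9 (vehicle, diamonds), as log2 of CPM over the median of the other 16 mice; grey bars give the range of those 16. In Scn1a and Scn9a the G4 point lies right of the bar, while in Cacnb3, Cacng3 and Cacna2d1 both points lie left of it.

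Markers of forebrain glutamatergic neurons were also low in these mice. The 8 markers summed to 404 CPM in G4 and 496 in G9, against 1873 to 6001 in the other 16, and no marker of the list was at 0 in all mice. By group the sum spanned 496 to 5236 CPM in vehicle mice and, at the 3 doses in rising order, 2170 to 6001, 1873 to 4724 and 404 to 2725, with all 8 slopes negative and none called. The 8 oligodendrocyte markers summed to 15927 CPM in G4, against 3865 to 9993 in the other 16, and to 6496 in G9. The 8 brainstem and spinal cord markers summed to 309 CPM in G4 and 201 in G9, against 0.929 to 127 in the other 16. All 8 oligodendrocyte slopes were positive with an unadjusted p under 0.05 (median 0.76) and none was called. Without G4 and G9 the median slope was still -1.13 for the forebrain glutamatergic markers, -1.25 for the striatal markers and 0.43 for the oligodendrocyte markers. The part of these tissue shares in the members' slopes was not tested. Without G4 and G9 the members' median slope was -0.17, with 22 negative and 12 positive slopes, and 0 members were called. Without them, 5 members had an unadjusted edgeR p under 0.05, Cacna2d1, Cacnb3, Cacng3, Scn2a and Scn9a. Over all genes, edgeR then called 2 of 16014 at an adjusted p under 0.05.

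The mice at the extremes of some members were also at the extremes of regional markers. These pairings of member and markers were chosen after their values were seen. The 5 mice lowest for Cacng3 (G9, G4, G45, G79 and G49) were the 5 lowest for the forebrain glutamatergic sum. The 2 mice highest for Scn4b, G1 at 994 CPM and G29 at 951 CPM, were the 2 highest for the 8 markers of striatal projection neurons, with sums of 3025 and 3293 CPM against 216 to 1550 in the remaining mice. Scn4b was 121 to 563 CPM in those remaining mice. The mouse highest for Cacna1g, G45 at 181 CPM, was the highest for the 8 thalamic markers, at 1963 CPM against 107 to 548 in the others, but the next highest for Cacna1g, G9 and G79, had thalamic sums of 399 and 327 CPM. The match was partial for other members: of the 5 lowest mice, 4 were shared with the forebrain sum for Cacnb3 and 3 for Scn2a and Cacna2d1. Of the 5 highest mice, 3 were shared with the cerebellar granule cell sum for Cacna1a, and with the brainstem sum 3 for Scn9a and 2 for Scn1a.

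**Figure D5:**
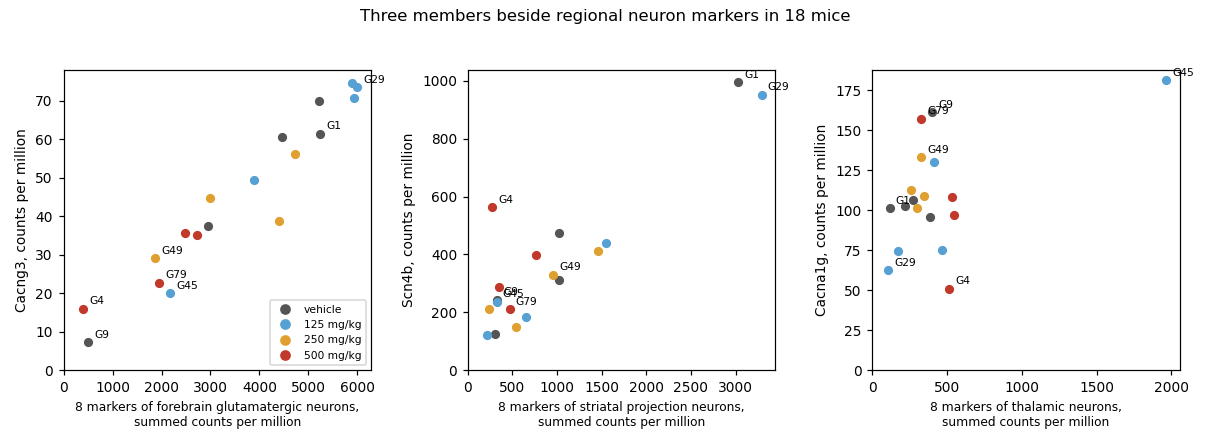
Level of Cacng3, Scn4b and Cacna1g in CPM on the vertical axes against the summed CPM of 8 markers of forebrain glutamatergic, striatal projection and thalamic neurons on the horizontal axes; each point is 1 mouse coloured by dose group. G4 and G9 lie at the lower left for Cacng3, G1 and G29 at the upper right for Scn4b, and G45 apart from the rest for Cacna1g.

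Ratios of counts within a library compare members without scaling between libraries, and are given as a description chosen after the values were seen. The Scn1a to Scn2a ratio ran from 0.410 to 1.28 in vehicle mice, with a median of 0.460. At the 3 doses in rising order its ranges were 0.344 to 1.17 (median 0.474), 0.536 to 0.700 (median 0.633) and 0.733 to 3.15 (median 1.013). G4 had the highest ratio and G9 the highest among vehicle mice, and the groups overlapped. The Cacna2d2 to Cacna2d1 ratio ran from 0.2 to 1.08 in vehicle mice (median 0.300) and 0.464 to 0.915 at 500 mg/kg (median 0.508), and these ranges overlapped. The Scn8a to Scn2a ratio ran from 0.685 to 0.986 in vehicle mice and 0.882 to 2.06 at 500 mg/kg.

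Genes whose products work with these channels gave no call either. Of 11 sodium channel partners (the Fgf11 to Fgf14 family, ankyrins, spectrin, cell adhesion proteins and the ubiquitin ligase Nedd4l), 0 were called and the median slope was 0.06. The smallest p was that of Nfasc, an anchor of nodal channels, at 291 ± 53.5 CPM in vehicle and 408 ± 58.9 at 500 mg/kg, with a slope of 0.52 ± 0.16 (edgeR adjusted p = 0.179). Of the 4 measured genes of the sodium leak channel complex, 0 were called (median 0.02), the smallest p being that of Nalf1 (slope -0.11 ± 0.10, adjusted p = 0.687). Of 10 tested calcium channel partners, 0 were called (median -0.22), the smallest p being that of Rem2, an inhibitor of calcium channels (slope -1.08 ± 0.56, adjusted p = 0.426).

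Of the 4 AMPA receptor auxiliary subunits outside the gamma family, all had negative slopes (median -0.58) and 0 were called. The smallest p was that of Gsg1l (slope -0.78 ± 0.33, adjusted p = 0.323), and the summed level of the 4 was 164 CPM in G4 and 140 CPM in G9 against 263 to 512 in the other 16. Of the 6 tested gamma genes, Cacng3 and Cacng8 were below those 16 mice in both G4 and G9. Of the 6 intracellular calcium release channels, 0 were called (median 0.12), the smallest p being that of Itpr1, which is abundant in Purkinje cells, at 451 ± 44.2 CPM in vehicle and 203 ± 147 at 500 mg/kg (slope -0.99 ± 0.39, adjusted p = 0.294). Itpr1 is also in the Purkinje cell marker list, whose 8 markers summed to 178 CPM in G4 and 2248 in G9. The 16 mice other than G4 and G9 had 388 to 2443.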

How the data were processed

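RNA from brain hemispheres of 18 mice was sequenced as stranded, ribosomal RNA-depleted libraries with 100-base paired-end reads. Alignment by the authors used STAR 2.7.5b and the GRCm38 genome; they then counted reads per gene with featureCounts, checked quality with MultiQC 1.12 and deposited whole-number counts per Entrez gene. The annotation release, the strand setting and the handling of reads with several matches are not given in the sources used here. Symbols and chromosomes came from RefSeq (GRCm38.p6), and exon lengths, coordinates and transcripts from GENCODE M21.

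Groups and sexes were taken from the sample labels. Counts were tested with edgeR 4.0.16 (R 4.3.3; TMM scaling, filterByExpr with a minimum count of 10, quasi-likelihood F test) in models that included sex, and p-values were adjusted by Benjamini-Hochberg over the 15863 genes tested, with a threshold of 0.05. Errors of slopes and fold changes are standard errors, and intervals are 95%. Fits were checked on simulated data with the same spread for every gene and with known slopes steeper than those of most members. That check does not show how often slopes as shallow as the members' would be called. Alternatives were DESeq2 1.42.0, limma-voom (limma 3.58.1), other scaling and filters, other codings of dose and other sets of mice. Nothing in the labels states more than 1 library per mouse, and p-values measure the spread between mice. The paper states that mice were housed in groups by sex and dose. Cages are not given in the labels, and the p-values treat cage mates as independent.

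All but 2 members were named, and those 2, with the sequences of the sodium alpha genes, are not reported here, though counts over the members include them. Full values were given for those with an unadjusted dose-regression p under 0.05 and for the member with the smallest p and with the highest level per kilobase in each subfamily. Of partner lists, the gene with the smallest p was named. The members and the lists of partners and markers were chosen with earlier results of these data known.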

Additional observations from a re-analysis of the deposited data

Results flagged for a closer look

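Within each dose group, a mouse was looked at again where its gap to the nearest other mouse was a large share of the group's range by Dixon's criterion at the 95% level. Over 128 groups of 4 or 5 mice (32 tested members in 4 dose groups), 7 values stood out, and chance gives about 1 in 20 groups. Vehicle mouse G9 was high for Cacna1g (161 CPM, nearest 106), a T-type channel gene. Vehicle mouse G1 was high for Cacna1d (56.8 CPM, nearest 31.8). At 125 mg/kg, G45 was high for Cacna2d4 (9.17 CPM, nearest 2.42). At 250 mg/kg, G49 was low for Cacna1e (255 CPM, nearest 434) and Cacna1f (0.247 CPM, nearest 1.69), and G66 was low for Scn7a (5.66 CPM, nearest 9.62). At 500 mg/kg, G90 was low for Cacng5 (27.1 CPM, nearest 29.8). What sets these values apart was not tested.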

How the results depend on the processing

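The counts of called members were 0 under all alternatives run, including other scaling, filters, tools, codings of dose, the sexes alone and each mouse left out. The number of members with an unadjusted p under 0.05 in the dose regression was 8 in the reported fit, 9 with DESeq2 and 6 with limma-voom. It was 5 without the sex term, with dose as a rank or in males alone, and 2 in females alone. It was 0 without the 500 mg/kg mice or with the mouse tag number as a block. Over all genes, those called at an adjusted p under 0.05 numbered 46 in the reported fit, 242 with DESeq2 and 50 with limma-voom. They numbered 42 without the sex term and 27 with dose as a rank. With DESeq2 size factors they numbered 47, without a filter on low counts 29 and with at least 10 counts in every library 54. They numbered 0 in males alone, in females alone, without the 500 mg/kg mice and with the mouse tag number as a block. The block had 6 levels over 18 mice, and what the number stands for is not given in the labels. Most tag numbers were held by mice of a single dose group, so the block takes up much of the dose contrast. Its results cannot show whether members changed with dose. The median slope ran from -0.22 to -0.07 with 1 mouse left out and was 0.01 without the 500 mg/kg mice. Of 958 gene slopes under alternatives, over the 32 tested members named here, 45 turned sign, none past the threshold; the cause was not tested. Without the 500 mg/kg mice the turned slopes were Cacna1d 0.44, Cacna1g 0.0818, Cacna1h 0.40, Cacna2d3 0.17, Cacnb1 0.0204, Cacng5 0.27, Cacng8 0.48, Scn1a -0.0251 and Scn3b 0.42. With the tag block they were Cacna1b -0.12, Cacna1c -0.0623, Cacna1f -0.20, Cacng4 0.0143, Cacng5 0.00322, Cacng7 0.0074, Scn4b 0.86 and Scn7a -0.38. In males alone they were Cacna1a 0.0652, Cacna1c -0.0635, Cacna1h 0.0581, Cacng8 0.11 and Scn7a -0.0702, and in females alone Cacna1d 0.14. With limma-voom they were Cacna1h 0.0478 and Scn4b 0.0171. Without G4 and G9, a setting chosen after seeing the data, they were Cacna1a 0.26, Cacna1d 0.13, Cacna1g 0.27 and Scn8a -0.0137. With 1 mouse left out, slopes that turned ran from -0.39 to 0.23 (Cacna1a), -0.13 to 0.24 (Cacna1b), -0.19 to 0.23 (Cacna1c), -0.52 to 0.18 (Cacna1d), -0.38 to 0.16 (Cacna1g), -0.33 to 0.0893 (Cacna1h), -0.23 to 0.0765 (Cacng4), -0.29 to 0.13 (Cacng8) and -0.59 to 0.35 (Scn4b). Depth limits Cacna1f and Cacna2d4, with at most 16 and 85 counts in a mouse, and the 6 members not tested.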
